A study of Mus musculus with 69 samples.

Results

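The genes described here are the replication-dependent histone genes, taken as every row of the mRNA-seq count table whose symbol begins with Hist1h, Hist2h, Hist3h or Hist4h. They number 49 of 16263 listed genes, and comprise 5 linker histone H1 genes, 11 H2a genes, 15 H2b genes, 10 H3 genes and 8 H4 genes. Of the 70 genes that GENCODE M21 gives such a symbol, the other 21 have no row in the table, among them Hist2h4 and Hist4h4, and were not analysed here. WT cells were J1 mouse embryonic stem cells (ESCs), a male line of strain 129S4/SvJae. The mutant lines Mut18 and Mut43 are single clones of these ESCs in which both alleles of H3f3a and both alleles of H3f3b were edited with CRISPR-Cas9, so that histone H3.3 carries arginine in place of lysine 27 (H3.3K27R). All lines were grown on feeder cells and passaged without feeders before harvest. Each line was measured in 2 mRNA-seq and 2 ATAC-seq libraries.

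Replication-dependent histone genes encode the bulk of the nucleosome core and its linker histone, and are expressed mainly while DNA is being copied. They have no introns in their main form, and their mRNAs end in a conserved stem-loop in place of a poly(A) tail. The stem-loop is bound by SLBP, and the cut behind it is directed by the U7 small nuclear ribonucleoprotein. The H3 genes of this set encode H3.1 or H3.2, which keep lysine 27 in the mutant lines, while H3.3 comes from the edited genes H3f3a and H3f3b, which are polyadenylated and outside the set.

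The genes lie in clusters (mm10). On chromosome 13, 18 genes lie at chr13:21715763-22043676 and 26 at chr13:23531050-23764406, which together form Hist1. The Hist2 cluster has 3 listed genes at chr3:96221119-96270132, and Hist3 has 2 at chr11:58948920-58956830. No Hist4 gene is listed.

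The 3' stem-loop is shown first, because it is the feature that sets these mRNAs apart and bears on how they enter an mRNA library. The motif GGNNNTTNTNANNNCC was searched on the sense strand in the 200 bases after the annotated stop codon. It was found in 46 of the 49 genes (93.9%) and in 86 of 21678 other protein-coding genes (0.397%), starting 23 to 55 bases after the stop codon (median 30.5). No match was found for Hist1h2an, Hist1h2bp and Hist2h2be. The 46 matches took 7 forms, printed here with the 4 loop bases in capitals and the stem in lower case, 5′ to 3′ as DNA.
31 genes, among them Hist1h1a, Hist1h3b and Hist1h3i: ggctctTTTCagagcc
6 genes, among them Hist1h3c and Hist1h2bk: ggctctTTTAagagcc
Hist1h4d, Hist1h4h, Hist1h4k and Hist1h4n: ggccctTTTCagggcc
Hist1h4b and Hist1h4j: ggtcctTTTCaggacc
Hist1h4a: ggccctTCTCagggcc
Hist1h4i: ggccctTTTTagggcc
Hist1h3g: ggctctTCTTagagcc
All forms pair over their full stem, and the forms with a changed stem were those of H4 genes. For 13 of the 46 genes the annotated gene ended before the end of the stem-loop, and for 18, of which 11 passed the filter on low counts, it ran more than 100 bases past it. Reads in these longer models can come from transcripts that extend beyond the stem-loop, and the table does not separate them from the short form.

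The promoters of 45 of the 49 genes were matched in RefSeq (GRCm38.p6, 250 bases before to 50 after the start, both strands searched). TATAAA, the core of the TATA box, was present in 28 of 45 (62.2%) against 13.6% of all 32851 promoters. CCAAT was present in 39 of 45 (86.7%, against 37.4%), that is in all matched H1, H2a, H2b and H3 promoters but in 2 of 8 H4 promoters. The octamer ATTTGCAT was found in 5 of 11 H2a and 5 of 13 H2b promoters and in no other class (1.74% of all promoters). Hist1h2be has 2 RefSeq promoters, of which only that at chr13:23621045-23621344 was counted. Its other promoter, at chr13:23585921-23586220, holds the octamer. The letters AAACACA, known from H1 promoters, were found in 4 of 5 H1 promoters (7.18% of all), and the E2F-like letters TTCGCGC in 5 H2a and 4 H2b promoters (1.59% of all). Many H2a and H2b genes are divergent neighbours whose windows overlap, so their counts are not independent. The promoters of 4 genes are printed, one for each of the classes H1, H2a, H3 and H4, with matches to any of these motifs on either strand in capitals.
Hist1h1a, chr13:23763418-23763717, plus strand: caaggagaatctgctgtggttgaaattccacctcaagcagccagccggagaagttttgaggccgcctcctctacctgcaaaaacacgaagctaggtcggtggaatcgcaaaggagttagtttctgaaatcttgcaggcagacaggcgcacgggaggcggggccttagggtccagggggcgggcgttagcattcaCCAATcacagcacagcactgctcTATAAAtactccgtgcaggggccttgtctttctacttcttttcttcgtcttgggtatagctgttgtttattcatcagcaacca
Hist1h2ah, chr13:22035594-22035893, minus strand: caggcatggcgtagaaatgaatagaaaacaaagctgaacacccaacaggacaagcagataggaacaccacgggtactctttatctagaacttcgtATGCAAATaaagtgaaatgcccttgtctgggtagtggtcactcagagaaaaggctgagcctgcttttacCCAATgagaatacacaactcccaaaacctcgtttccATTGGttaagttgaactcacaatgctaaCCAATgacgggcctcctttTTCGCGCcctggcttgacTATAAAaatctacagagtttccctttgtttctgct
Hist1h3b, chr13:23752095-23752394, plus strand: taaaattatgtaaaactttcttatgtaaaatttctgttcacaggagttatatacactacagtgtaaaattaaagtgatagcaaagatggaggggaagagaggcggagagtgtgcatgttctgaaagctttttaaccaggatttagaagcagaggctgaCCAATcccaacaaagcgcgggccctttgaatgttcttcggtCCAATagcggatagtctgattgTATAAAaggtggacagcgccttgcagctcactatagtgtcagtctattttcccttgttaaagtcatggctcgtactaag
Hist1h4d, chr13:23581318-23581617, plus strand: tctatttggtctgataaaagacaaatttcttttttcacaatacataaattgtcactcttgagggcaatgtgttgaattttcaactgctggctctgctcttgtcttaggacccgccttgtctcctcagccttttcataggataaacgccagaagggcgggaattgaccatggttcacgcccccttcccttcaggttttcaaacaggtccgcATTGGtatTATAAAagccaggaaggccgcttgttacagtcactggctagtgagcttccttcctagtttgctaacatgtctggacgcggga
In each of these 4 windows the TATAAA match lies close to the RefSeq start, downstream of the CCAAT matches. It lies upstream of that start except in Hist1h2ah, where it lies within the 50 bases after it. Hist1h2ah also holds the octamer and TTCGCGC.

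Each library had 14992756 to 15143998 counts in all, yet the 49 histone genes together held 2464 to 2988 of them. The level was very uneven between classes. Levels are also given in CPM, counts scaled to a common library size with TMM factors, and compared between genes only per kb of exon. The 11 H2a genes held 1972 to 2454 counts per library, the 15 H2b genes 244 to 286, the 10 H3 genes 79 to 161, the 8 H4 genes 45 to 81 and the 5 H1 genes 48 to 69. Of the 49 genes, 29 passed edgeR's filter on low counts (2 H1, 11 H2a, 7 H2b, 7 H3 and 2 H4). The 20 that did not pass had 0 to 11 reads in every library.

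**Figure D1:**
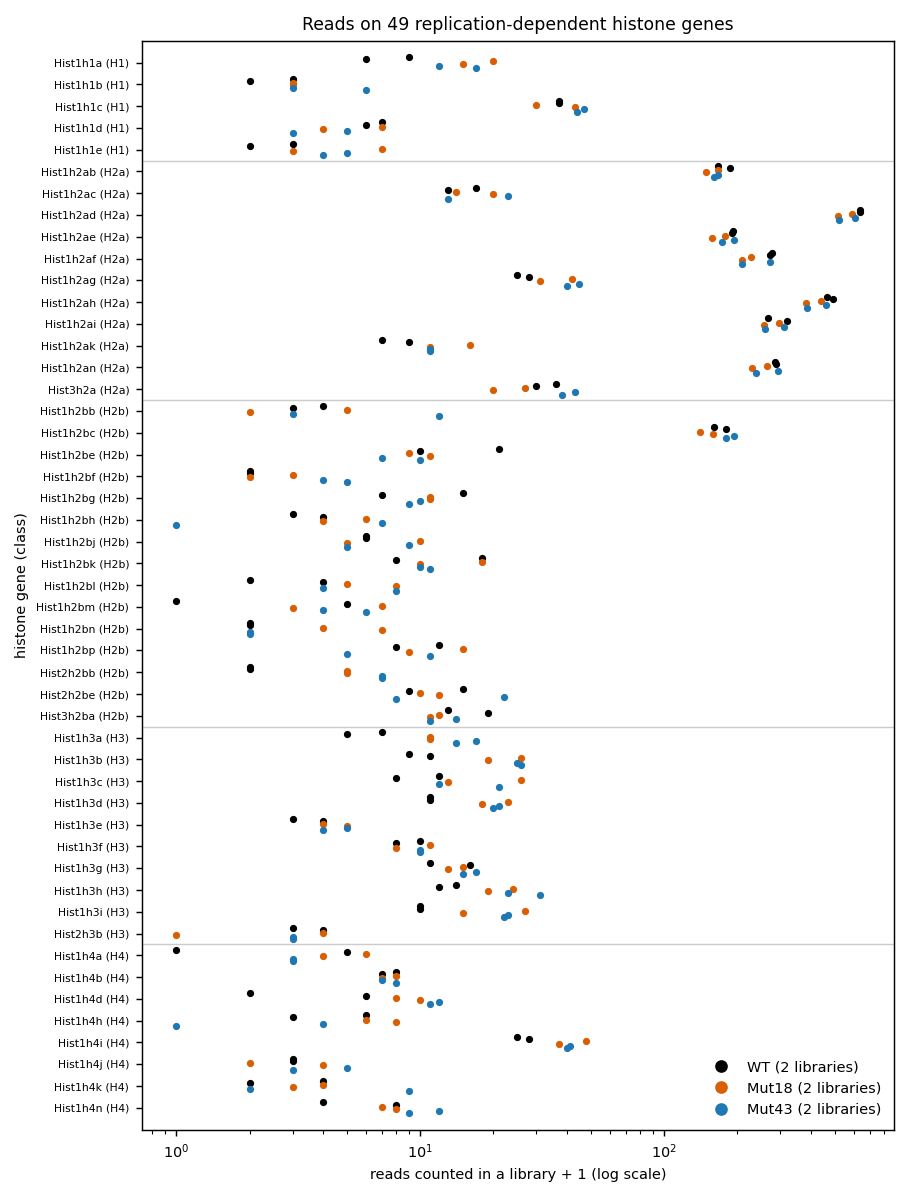
Reads counted on each of the 49 genes in each library (one point per library, value plus 1 on a log axis), ordered by class, with WT in black, Mut18 in orange and Mut43 in blue. The 7 high H2a genes and Hist1h2bc lie above 100 reads, and all other genes stay under 50.

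The 7 high H2a genes were Hist1h2ab, Hist1h2ad, Hist1h2ae, Hist1h2af, Hist1h2ah, Hist1h2ai and Hist1h2an, with 147 to 636 reads in every library. Together they held 74.4 to 82.3% of all reads on the 49 genes. Their sequences are close copies of each other. Of all windows of 100 bases in a member's annotated transcripts, the share found in the transcript of another gene had a median of 63.6% in H2a genes (8.06 to 89.5%), 40.0% in H3 genes (20.4 to 100%), 35.2% in H4 genes, 32.8% in H2b genes and 0.79% in H1 genes. How reads that fit several genes were counted is not given in the sources used here, so the split of reads among the H2a copies is uncertain, and part of the reads may come from copies without a row in the table, such as Hist1h2ao and Hist1h2ap. Hist1h2ag shared 76.2% of its windows and had 24 to 44 reads.

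**Figure D2:**
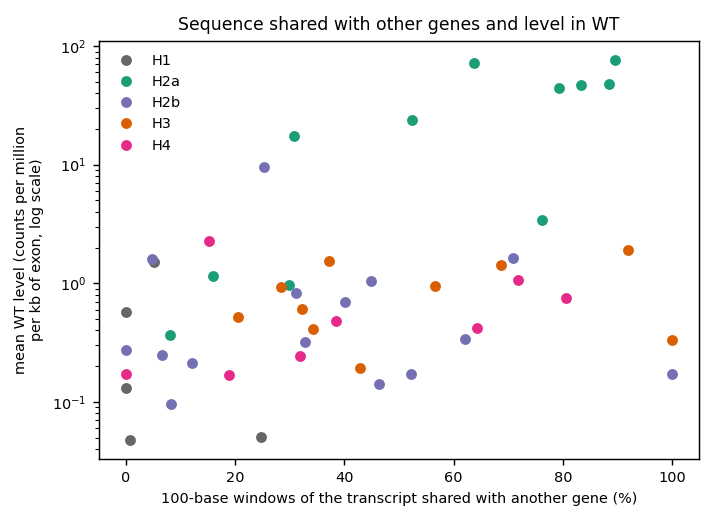
Mean WT level of each gene per kb of exon (CPM, log axis) against the share of its 100-base windows that also occur in another gene's transcript, coloured by class. The 7 H2a genes with the highest levels lie above the other members at shares from 30.7 to 89.5%.

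The 4 mutant libraries were compared with the 2 WT libraries by edgeR's quasi-likelihood F-test over all 14061 genes that passed the filter. H3 genes were 5 of the 9 histone genes that rose, and no histone gene fell. These H3 genes share sequence and so are not separate measurements. Among the 29 tested histone genes, 6 were upregulated more than 2-fold at an adjusted p under 0.05 (20.7%), against 3.28% of all tested genes, and 0 were downregulated more than 2-fold, against 5.65%. Without a limit on size, 9 of 29 rose (31.0%, against 23.5%) and 0 of 29 fell (against 24.5%), while 11 had an unadjusted p under 0.05. Named by class, the 6 were the H3 genes Hist1h3a, Hist1h3b, Hist1h3d and Hist1h3i, the linker gene Hist1h1a and the H4 gene Hist1h4d. They have few reads, and none of the 6 reached the filter's level in both WT libraries, so each entered the test through the mutant libraries and the share of 20.7% is a description only. Without either WT library the number called was 3, without the filter 8, and DESeq2 called 2. Among tested genes with a mean under 50 normalized counts, 9.75% were upregulated more than 2-fold, against the same 6 of 21 histone genes at that level. A count that no filter touches is that of all 49 genes, of which 18 had all 4 mutant libraries above both WT libraries (36.7%, against 27.4% of all 16263 listed genes) and 1 had all 4 below (2.04%, against 28.6%). At low counts this measure is loose, because a mutant library with the same reads as a WT library lay above it after scaling, never below. Hist1h2bn, with 1 and 1 reads in WT and 3, 6, 1 and 1 in the mutants, is among the 18. Of the 18, 7 did not pass the filter on low counts, so their share is a description only.

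**Figure D3:**
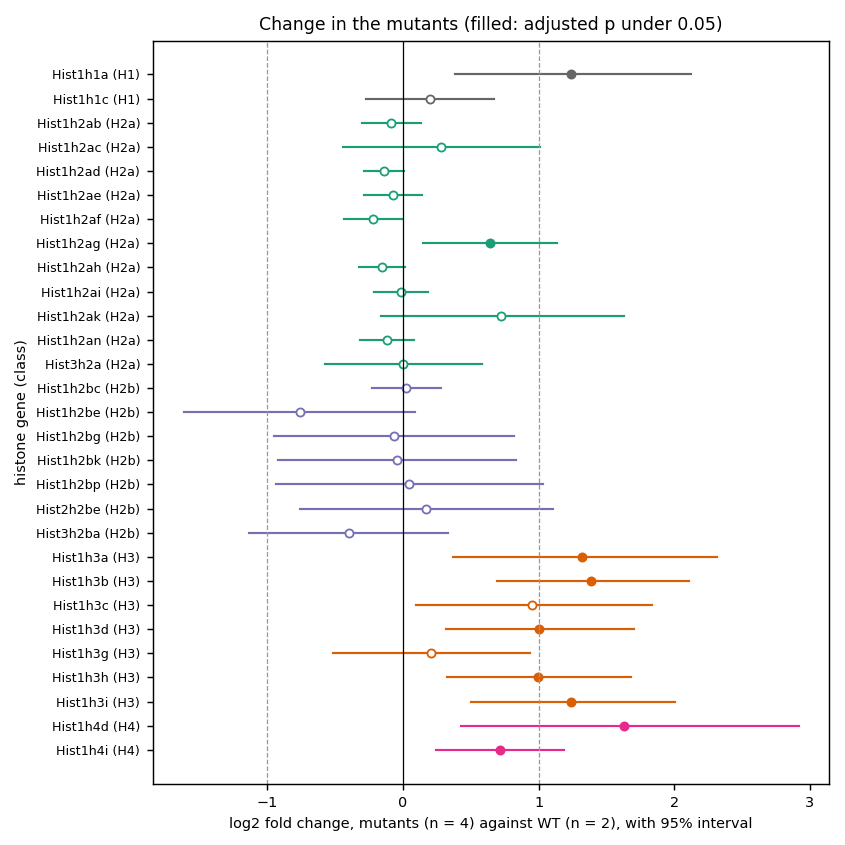
Log2 fold change of the 29 tested genes, mutants (n = 4) against WT (n = 2), with 95% intervals, coloured by class, filled where the adjusted p is under 0.05. The 7 H3 genes lie between 0.21 and 1.39 and the 7 high H2a genes between -0.22 and -0.02.

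Histone H3 wraps DNA with H4 as the central tetramer of the nucleosome. Hist1h3b (chr13:23752267-23752886), an H3.2 gene, had 8 and 10 reads in the WT libraries, 25 and 18 reads in those of Mut18, and 24 and 25 reads in those of Mut43. All 4 mutant libraries lay above both WT libraries, and the log2 fold change was 1.39 (SE 0.338, adjusted p = 0.00182). Hist1h3i (chr13:21782960-21783370), an H3.1 gene, had 9 and 9 reads in the WT libraries, 26 and 14 reads in those of Mut18, and 22 and 21 reads in those of Mut43. The groups did not overlap, and the log2 fold change was 1.24 (SE 0.361, adjusted p = 0.00710). These are the 2 genes that DESeq2 also called beyond 2-fold.

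Hist1h3a (chr13:23761853-23762386) had 6 and 4 reads in the WT libraries, 10 and 10 reads in those of Mut18, and 16 and 13 reads in those of Mut43, with a log2 fold change of 1.32 (SE 0.466, adjusted p = 0.0225). Hist1h3d (chr13:23575763-23577011) had 10 and 10 reads in the WT libraries, 22 and 17 reads in those of Mut18, and 20 and 19 reads in those of Mut43. At a log2 fold change of 1.00 it lay just inside the 2-fold limit (adjusted p = 0.0162), and Hist1h3h, with 13 and 11 reads in WT and 18 to 30 in the mutants, lay just outside it at 0.99 (adjusted p = 0.0148). Hist1h3d fell under the limit with upper quartile normalization (0.984) or without the first library of either clone. Hist1h3h has the highest level per kb of the H3 genes in WT, but shares 92.0% of its windows with other H3 genes, so that reads from one copy may have been counted for another. None of Hist1h3a, Hist1h3d and Hist1h3h kept an adjusted p under 0.05 in DESeq2, where the values were 0.100, 0.0926 and 0.0710. Each also lost its call without either WT library, with adjusted p-values of 0.0584 and 0.166 for Hist1h3a, 0.0949 and 0.0864 for Hist1h3d, and 0.0523 and 0.103 for Hist1h3h. Without the first Mut43 library, Hist1h3a had an adjusted p of 0.0593.

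Hist1h3c did not pass (log2 fold change 0.96, adjusted p = 0.0625), although its 4 mutant libraries, at 25, 12, 11 and 20 reads, all lay above WT after normalization for depth (11 and 7 reads). Hist1h3g had 10 and 15 reads in WT and 12 to 16 in the mutants, which overlap (0.21, adjusted p = 0.642). The remaining H3 genes, Hist1h3e, Hist1h3f and Hist2h3b, had 0 to 10 reads and were not tested. Summed over all 10 H3 genes, tested or not, the WT libraries had 80 and 79 reads, those of Mut18 161 and 112 reads, and those of Mut43 146 and 156 reads. The H3 sum was 5.16 ± 0.0319 CPM over the 2 WT libraries (mean ± SD, n = 2) and 9.65 ± 1.46 CPM over the 4 mutant libraries (mean ± SD, n = 4), a ratio of 1.87. In 7 of 10 genes all mutant libraries lay above WT, against 27.4% of all listed genes. Most H3 genes share sequence with each other, Hist1h3i over 68.6% of its windows and Hist1h3b over 56.6%. Reads from one copy may have been counted for another, so these are not 10 separate measurements. For Hist1h3c and Hist1h3e, which are among the 7, a mutant library had the same reads as a WT library and lay above it only after scaling. The 4 H3.1 genes and the 6 H3.2 genes gave near-equal ratios, 1.89 and 1.85, from 38 and 39 against 54 to 78 reads for H3.1 and from 42 and 40 against 58 to 88 for H3.2. No p is given for these sums, whose members were chosen with earlier results known.

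**Figure D4:**
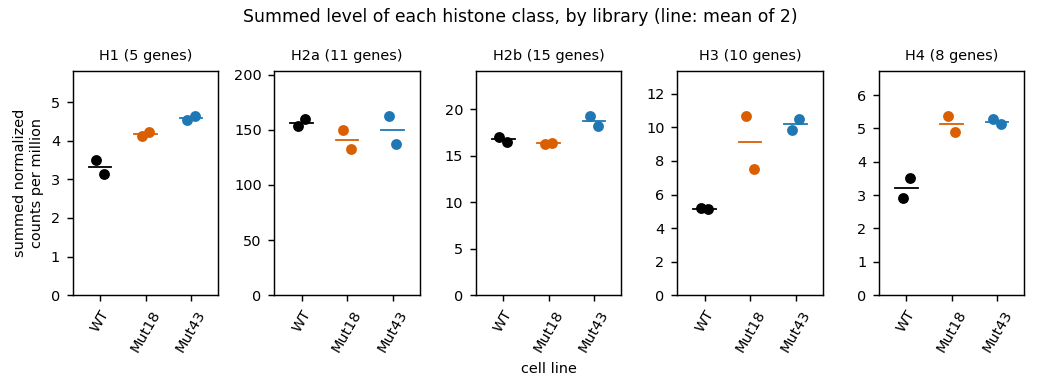
Summed level of each histone class (CPM, all listed genes of the class) in each library, with the mean of the 2 libraries of a line as a bar and each axis starting at 0. The 4 mutant libraries lie above both WT libraries for H1, H3 and H4, while for H2b Mut18 lies below and Mut43 above WT, and for H2a Mut18 lies below WT and the Mut43 libraries on either side of it.

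The H4 genes were low, with Hist1h4i as the highest. Hist1h4i had 24 and 27 reads in the WT libraries, 47 and 36 reads in those of Mut18, and 40 and 39 reads in those of Mut43. It rose by 0.71 on the log2 scale (SE 0.228, adjusted p = 0.0134), less than 2-fold, and the adjusted p was 0.0710 in DESeq2 and 0.109 without the first WT library. Hist1h4d (chr13:23581598-23582735) had 1 and 5 reads in the WT libraries, 7 and 9 reads in those of Mut18, and 11 and 10 reads in those of Mut43. Its log2 fold change of 1.63 (SE 0.597, adjusted p = 0.0257) rests on few WT reads. Without the first WT library it was 0.92 with an adjusted p of 0.298, and without the second 3.11. It did not pass the filter, and so was not tested, when the first Mut18 library or either Mut43 library was left out. Unlike the other H4 genes, Hist1h4d shares none of its 100-base windows with another gene. The other 6 H4 genes had 0 to 11 reads. The H4 sum was 3.22 ± 0.422 CPM over the 2 WT libraries (mean ± SD, n = 2) and 5.17 ± 0.208 CPM over the 4 mutant libraries (mean ± SD, n = 4), a ratio of 1.61.

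Linker histone H1 binds where DNA enters and leaves the nucleosome. Hist1h1a (chr13:23763666-23764406) had 8 and 5 reads in the WT libraries, 19 and 14 reads in those of Mut18, and 11 and 16 reads in those of Mut43. All mutant libraries were above WT, with a log2 fold change of 1.24 (SE 0.418, adjusted p = 0.0176). The adjusted p was 0.0835 in DESeq2 and 0.165 without the second WT library. Hist1h1c, the H1 gene with the highest level, had 36 and 36 reads in WT and 29 to 46 in the mutants, which span the WT value (0.20, 95% interval -0.27 to 0.67, adjusted p = 0.489). Hist1h1b, Hist1h1d and Hist1h1e had 1 to 6 reads and were not tested. The H1 sum was 3.31 ± 0.267 CPM over the 2 WT libraries (mean ± SD, n = 2) and 4.38 ± 0.247 CPM over the 4 mutant libraries (mean ± SD, n = 4), a ratio of 1.32.

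Histones H2A and H2B form the outer dimers of the nucleosome. The high H2a genes did not pass the test. Hist1h2ad had 636 and 636 reads in the WT libraries, 588 and 518 reads in those of Mut18, and 603 and 521 reads in those of Mut43, all 4 mutant counts below WT before normalization (log2 fold change -0.14, 95% interval -0.29 to 0.00, adjusted p = 0.103). Hist1h2ah had 466 and 491 reads in the WT libraries, 440 and 381 reads in those of Mut18, and 461 and 384 reads in those of Mut43 (-0.15, 95% interval -0.32 to 0.02, adjusted p = 0.133). In both genes 1 library of each clone lay nearer to WT than the other, and the 5 other high H2a genes had log2 fold changes between -0.22 and -0.02. When the first Mut43 library was left out, both genes fell with adjusted p-values of 0.0485 and 0.0489. These 7 genes share sequence and so are not 7 separate measurements.

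Of the 4 lower H2a genes, Hist1h2ag rose by 0.64 on the log2 scale (adjusted p = 0.0315), with 24 and 27 reads in WT and 30 to 44 in the mutants. Hist3h2a had 35 and 29 reads in the WT libraries, 26 and 19 reads in those of Mut18, and 42 and 37 reads in those of Mut43, so that the clones lay on either side of WT (0.00, 95% interval -0.58 to 0.58). The H2a sum was 157 ± 4.47 CPM over the 2 WT libraries (mean ± SD, n = 2) and 146 ± 13.6 CPM over the 4 mutant libraries (mean ± SD, n = 4), a ratio of 0.930.

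Of the 15 H2b genes, 7 were tested and 0 passed, with log2 fold changes from -0.76 to 0.17 and a lowest adjusted p of 0.131. Hist1h2bc, whose annotated gene is long (chr13:23684199-23692908), held most of the H2b reads, with 160 and 179 reads for the WT libraries, 139 and 158 for Mut18 and 192 and 178 for Mut43. After scaling, the Mut18 libraries overlapped WT and both Mut43 libraries lay above it, and the log2 fold change of all mutants against WT was 0.02 with a 95% interval from -0.23 to 0.28. Hist1h2bk had 17 and 7 reads in WT and 9 to 17 in the mutants (-0.04, 95% interval -0.92 to 0.83), an interval that does not exclude a change close to 2-fold in either direction. The H2b sum was 16.8 ± 0.322 CPM over the 2 WT libraries (mean ± SD, n = 2) and 17.6 ± 1.47 CPM over the 4 mutant libraries (mean ± SD, n = 4), a ratio of 1.05.

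Levels also differed sharply within divergent H2a and H2b pairs that share a promoter region. Per kb of exon, the mean WT level of Hist1h2ah was 76.8 CPM and that of its neighbour Hist1h2bk 1.64. Hist1h2ad was at 72.2 and its neighbour Hist1h2bf at 0.141, with 1 read in each WT library. In the other direction, Hist1h2bc was at 9.53 and its neighbour Hist1h2ac at 0.366. Because reads of H2a copies may be shared among genes, these levels describe the table, not the transcripts of a single locus.

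By cluster, the ratio of the summed level in mutants to that in WT was 1.00 for the 18 genes of the first Hist1 group and 0.972 for the 26 of the second, both of which hold high H2a genes. It was 1.34 for the 3 Hist2 genes, with 17 and 12 reads in WT and 15 to 29 in the mutants, whose libraries overlap WT, and 0.925 for the 2 Hist3 genes. The 4 upregulated H3 genes were found in both groups. Outside Hist1, no gene passed. Hist2h2be had 14 and 8 reads in WT and 7 to 21 in the mutants (log2 fold change 0.17, 95% interval -0.76 to 1.10), and Hist3h2ba had 12 and 18 in WT and 10 to 13 in the mutants (-0.40, 95% interval -1.13 to 0.33). Hist3h2a and Hist3h2ba lie on chromosome 11, whose 1153 tested genes had a median log2 fold change of 0.39, against -0.06 over 506 genes of chromosome 13, and both Hist3 genes lay below their chromosome's median. Hist3h2a also overlaps Trim17, and reads of overlapping genes cannot be told apart without strand information. Over all 49 genes the sum was 185 ± 4.27 CPM over the 2 WT libraries (mean ± SD, n = 2) and 182 ± 15.5 CPM over the 4 mutant libraries (mean ± SD, n = 4).

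Each clone was compared with WT in a fit with 3 groups. Both comparisons share the WT libraries. In Mut18, 3 of 29 tested histone genes were upregulated more than 2-fold (against 2.79% of all tested genes), namely Hist1h1a, Hist1h3b and Hist1h3i, and 0 were downregulated (against 4.74%). In Mut43, 6 were upregulated (against 3.49%), namely Hist1h3a, Hist1h3b, Hist1h3d, Hist1h3h, Hist1h3i and Hist1h4d, and 0 were downregulated (against 6.81%). Of the genes upregulated in either clone, all but Hist1h3h were under the filter's level in both WT libraries. They entered the test through the mutant libraries, so the shares of upregulated histone genes are a description only. Hist1h3b had a log2 fold change of 1.28 in Mut18 (adjusted p = 0.00950) and 1.49 in Mut43 (adjusted p = 0.00215), and Hist1h3i had 1.18 and 1.30. Without a limit on size, Mut18 had 5 histone genes higher (against 20.3%) and 1 lower (against 21%), and Mut43 had 8 higher (against 22.9%) and 0 lower (against 23.9%). The 1 lower gene was Hist1h2af. The numbers beyond 2-fold depended on single libraries and on the tool. For Mut18 it was 1 without the first WT library and 0 without the first Mut18 library, and for Mut43 it was 3 without the second WT library and 2 without either Mut43 library. DESeq2 called 0 in Mut18 and 1 in Mut43.

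Between the clones, 0 of 29 histone genes passed, at any size, in edgeR (against 0.263% of all tested genes higher and 0.064% lower in Mut18, or 0 higher and 0.00711% lower beyond 2-fold), while 2 had an unadjusted p under 0.05. These were Hist3h2a, lower in Mut18 by 0.82 on the log2 scale (adjusted p = 0.306), and Hist1h2bc, lower by 0.33 (adjusted p = 0.376). That some genes were called in 1 clone and not in the other is therefore not shown to be a difference between the clones.

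The genes that make and load histones were read from lists chosen with earlier results of these data known. Of 19 genes of histone mRNA processing, 11 rose and 2 fell (median log2 fold change 0.15, none beyond 2-fold). Slbp, the stem-loop binding protein, had 2401 and 2486 reads in WT and 2360 to 2434 in the mutants (0.01, adjusted p = 0.797). Coil, which encodes the Cajal body protein coilin, had the lowest adjusted p (0.61, adjusted p = 3.64e-09), with 815 and 810 reads in WT and 1168 to 1242 in the mutants. The U7 subunit gene Lsm11 rose by 0.39, and Cpsf2, a subunit of the cleavage complex, fell by 0.22. Npat, the coactivator of histone gene transcription, did not pass (-0.12, adjusted p = 0.0692).

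Of 13 chaperone genes of the canonical histones, 3 rose and 4 fell, none beyond 2-fold. Rbbp7, a histone-binding subunit shared by several chromatin complexes, fell by 0.33 (adjusted p = 4.69e-07), and Asf1b, an H3-H4 chaperone, rose by 0.41 while its relative Asf1a fell by 0.35. Of 25 S phase genes, 7 rose and 5 fell (median 0.02), with Cdc6, a replication licensing factor, at 0.49 (adjusted p = 1.11e-08). Their summed level was 5312 to 5504 CPM in WT and 5419 to 5637 in the mutants. Of 10 mitosis genes, 3 rose and 2 fell, with Top2a, the topoisomerase of dividing cells, at 0.55 (adjusted p = 2.66e-09). Coil, Cdc6, Top2a, Aurkb, Lsm11 and Mif4gd lie on chromosome 11, whose median was 0.39. Over all tested genes, 23.5% rose and 24.5% fell at any size.

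Several other measurements also differed between WT and the mutants. RNAs without poly(A) tails were listed after the data had been seen, and 6 of 12 had a row in the table. The 45S ribosomal precursor Rn45s had 12190 and 11938 reads in the WT libraries, 20466 and 19811 reads in those of Mut18, and 21640 and 21411 reads in those of Mut43 (log2 fold change 0.84, adjusted p = 3.03e-12). Rpph1, the RNA of ribonuclease P, had 9 and 8 reads in WT and 17 to 25 in the mutants (1.29, adjusted p = 0.00476). Their libraries thus separate WT from both clones as those of the H3 and H4 sums do. So do those of 27.4% of all 16263 listed genes, with all 4 mutant libraries above both WT libraries. Within the mutants the order differed. In the second Mut18 library Rpph1 was at 3.04 times the WT mean, its highest value, while the H3 sum was at 1.46, its lowest among the mutants. Rnu73b did not pass (0.28, adjusted p = 0.426), and Terc, Scarna9 and Scarna13 had too few reads to be tested. The list's summed level was 780 to 793 CPM in WT and 1335 to 1466 in the mutants. Nearly all of it was Rn45s, with a mean of 784 CPM in WT and 1399 in the mutants, so the sum adds little to that gene. How poly(A) RNA was selected is not given in the sources used here, and the part of RNA selection in the H3 and H4 values was not tested.

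**Figure D5:**
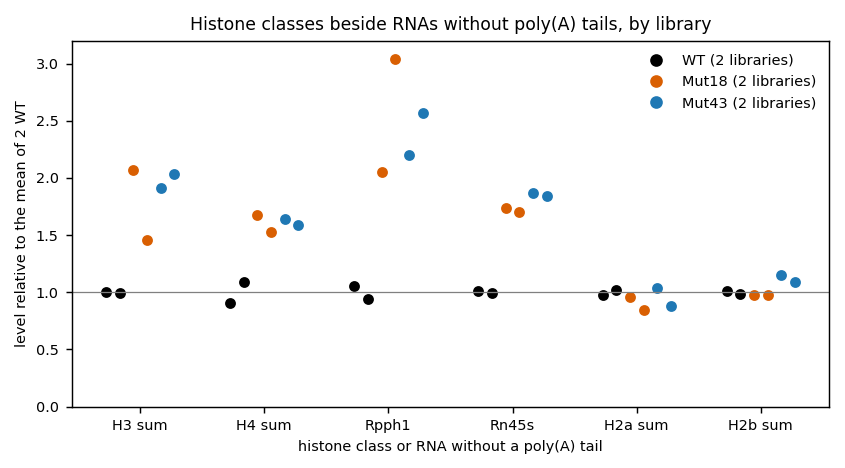
Level of the summed H3, H4, H2a and H2b genes and of Rpph1 and Rn45s in each library, divided by the mean of the 2 WT libraries (line at 1). The 4 mutant libraries lie between 1.46 and 3.04 for the H3 and H4 sums, Rpph1 and Rn45s, and between 0.846 and 1.15 for the H2a and H2b sums. Rpph1 and Rn45s are the RNAs without poly(A) tails that rose. Rnu73b, Terc, Scarna9 and Scarna13, which did not pass or were not tested, and the H1 sum are not shown.

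Of the fibroblast markers, 8 of 9 tested fell, 4 of them beyond 2-fold, and their summed level was 628 to 724 CPM in WT and 337 to 500 in the mutants. Col1a1 and Tagln had reads in every library, while Lum was at 0 in the second library of each line. Of 10 ESC markers, all were detected, 8 rose and 2 fell, none beyond 2-fold. The share of these other cells in the histone values was not tested, and in such bulk RNA fewer cells of a type and less RNA per cell cannot be told apart. A codon change need not alter the counts of the edited genes, so they do not check the labels. H3f3a fell by 0.23 on the log2 scale (adjusted p = 0.000160) and H3f3b did not pass (0.03, adjusted p = 0.637). H3f3b lies on chromosome 11, whose tested genes had a median of 0.39.

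Chromatin accessibility at the histone genes was read from the ATAC-seq peak lists, which hold 63588 to 78536 peaks per library. A peak lay within 500 bp of the GENCODE start of 48 of 49 genes in each of the 6 libraries (98.0%), against 57.5 to 62.5% of 21938 starts of protein-coding genes. The exception was Hist1h1d, whose GENCODE start (chr13:23553262) lies 1770 bp upstream of its RefSeq start (chr13:23555032). At RefSeq starts, an alternative added after the data were seen, all 49 genes had a peak in each library. WT and the mutants did not differ in this share, which is at its upper limit in all libraries and so cannot show a gain.

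Peaks were ranked within each library by their -log10 q, from 0 to 100. The peak at Hist1h1a ranked low, from 6.18 to 19.2 over the 6 libraries, and that at Hist1h3d from 10.6 to 36.9. Hist1h3a ranked from 1.66 to 33.9, Hist1h3i from 9.65 to 39.8, Hist1h3b from 44.3 to 63.8 and Hist1h4d from 49.8 to 68.4. For Hist1h3a all 4 mutant libraries (22.9, 15.8, 1.66 and 13.5) ranked below both WT libraries (33.9 and 24.1), although its counts rose. It was the 1 gene with lower ranks in all mutant libraries, while 8 genes had higher ranks, of which Hist1h1e and Hist1h2be share a peak. The share of all start sites with such ranks was not computed, and the number of peaks differed between libraries, so these counts are a description only. These ranks were not tested. The highest median rank over the libraries was that of the single peak shared by Hist1h2ac and Hist1h2bc, from 91.8 to 96.4. Hist1h2ad and Hist1h2bf share a peak as well, from 35.7 to 49.8, although their levels differ as given above. As a description, the median rank was 50.8 over the 10 H3 genes and 60.9 over the 11 H2a genes.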

How the data were processed

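mRNA-seq and ATAC-seq libraries of WT, Mut18 and Mut43 ESCs (2 each) were grouped by their titles. The mRNA-seq table holds raw counts for 16263 genes, which the authors left unnormalized. For ATAC-seq the deposited peak lists, 1 per library, give each peak's fold enrichment (ratio) and −log10 p and q. The submitters' processing notes name STAR, SAMtools, DESeq2, Bowtie2 2.3.4.2 and deepTools 3.3.0 for mRNA-seq, and Bowtie2, SAMtools, deepTools and MACS2 for ATAC-seq, with mm10. The counting program, its annotation, strand setting and treatment of reads that fit several genes are not given in the sources used here.

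Counts were filtered with edgeR 4.0.16 (filterByExpr, minimum count 10, minimum total 15), normalized by TMM and tested with its quasi-likelihood F-test in R 4.3.3, with Benjamini-Hochberg adjustment over 14061 genes. A gene was called upregulated or downregulated at an adjusted p under 0.05 and a log2 fold change beyond 1, and "rose" or "fell" at that p without the size. WT against all mutants used 2 groups, and the clones a fit with 3. Intervals are at 95%. In the fit with 3 groups, p-values measure the spread between the 2 libraries of a line, which the study calls biological duplicates. The fit with 2 groups pools both clones without a clone term, so its p-values rest on the spread between libraries and between clones. With a single WT line, an effect of H3.3K27R cannot be told apart from a difference between lines. Class sums and levels per kb (exons of GENCODE M21) have no test.

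Genes with full values were the called members, the 2 highest per class in WT per kb, all tested H1 genes, all tested members outside Hist1 and any that differed between clones, plus, of each list, the gene with the lowest adjusted p. Others are named as examples chosen after their values were seen. Members, lists and motifs were chosen with earlier results of these data known. Alternatives were DESeq2 1.42.0, other normalizations and filters, a replicate term, each library left out, and for ATAC-seq other windows, thresholds and starts. The edgeR fit was tested on simulated counts. Python 3.11.15 with pandas 2.3.3 was used for sequences and peaks. ChIP-seq samples were not analysed here. Counts near 10 limit precision, and depth is unknown for the peak lists.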

Additional observations from a re-analysis of the deposited data

Results flagged for a closer look

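In 27 sets of 4 mutant libraries (17 named genes and 10 sums), 3 had a library whose distance to its nearest neighbour, divided by the range of the 4, exceeded the 95% critical value of Dixon's test, which chance gives in about 1 of 20 sets. Hist1h2bk in the first Mut18 library was at 1.13 CPM, above the other mutant libraries, on 17 reads. Hist1h3b in the second Mut18 library was at 1.21 CPM, below the other mutant libraries yet above both WT libraries, on 18 reads. The Hist2 sum in the first Mut43 library was at 1.96 CPM, above the other mutant libraries, on 29 reads.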

How the results depend on the processing

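Of 17 named genes, all kept their direction and their side of an adjusted p of 0.05 under RLE normalization, without the filter and with the replicate block, and 16 under upper quartile normalization, where Hist3h2a went from 0.003 to -0.016. The 2-fold limit was crossed by Hist1h3d, at 0.984 under upper quartile normalization (5 called), and by Hist1h3h, at 1.005 without the filter (8 called). The number upregulated more than 2-fold in WT against mutants was 6 with the replicate block as well, 2 in DESeq2 and 0 at a minimum count of 50, which leaves the low members out. It was 3 to 8 when 1 library was left out, 3 without either WT library, and downregulated genes were 0 to 1 (Hist1h2be without the second WT library). For Mut18 it was 0 in DESeq2 and 0 to 3 with 1 library left out (1 without the first WT library, 0 without the first Mut18 library), and for Mut43 1 in DESeq2 and 2 to 4 (3 without the second WT library, 2 without either Mut43 library), with 0 to 1 lower. The replicate numbers do not pair the samples (correlation of replicate differences -0.02, 0.03 and -0.01), and the block changed no call of a histone gene. With it 3 chaperones fell, and 6 S phase genes rose and 4 fell. Chaperones that fell were 2 without the filter and 2 to 3 with 1 library left out, S phase genes that fell 3 in DESeq2 and 2 to 5, and S phase genes that rose 4 to 8. As log2 ratios, medians of tested members in place of sums gave 0.72 for H1 (0.40 as a sum), 1.17 for H4 (0.68), 0.34 and 0.20 for the Hist1 groups (0.00 and -0.04) and 0.17 over all members (-0.02), and tested members alone gave 0.85 for H4. Leaving out a library gave 0.32 to 0.49 for H1 and 0.56 to 0.83 for H4. Named genes whose sign changed when a library was left out were Hist1h2bc (-0.054 to 0.12), Hist1h2bk (-0.53 to 0.72), Hist1h3g (-0.051 to 0.54), Hist2h2be (-0.24 to 0.63) and Hist3h2a (-0.18 to 0.18), none of which passed the test. Of the genes that passed, Hist1h1a no longer passed without the second WT library, Hist1h3d and Hist1h3h without either WT library, Hist1h3a without either WT library or the first Mut43 library, and Hist1h4d and Hist1h4i without the first WT library. Hist1h4d was not tested without the first Mut18 library or either Mut43 library, and Hist1h3d fell under 2-fold without the first Mut18 library (0.945) or the first Mut43 library (0.992). In WT against all mutants, Hist1h3b and Hist1h3i stayed called in each alternative that tested them. In Mut18 alone against WT, DESeq2 called neither. For ATAC-seq, the percent of genes with a peak, mutants minus WT, was 0.0 and became -0.51 with the same number of peaks in each library and -5.10 at a minimum −log10 q of 20, where 31 to 38 genes kept a peak. Unless the construction shows it, the cause of these changes was not tested.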
